A study of Sus scrofa with 9 samples.

Results

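Splicing factors and RNA helicases were followed in pig testis by their transcripts on a single-colour Agilent array. Members were chosen by gene name alone, without use of any measured value. They are the genes on the array whose symbol begins with HNRNP, HNRP, SF3A, SF3B, SRSF, SFRS, SNRP, U2AF, PTBP or PRPF, or with RBM, DDX or DHX followed by a digit, without the helicase-like RNA sensor DDX58. The rule found 67 genes with 214 probes among the 60889 non-control probes. Each gene was represented by its probe with the highest mean in the authors' normalized table. PRPF8 and RBM9 had no probe in that table and so no chosen probe, which left 65 genes for the counts, and all 65 passed the filter on low signal. No probe carried a gene name of the U2AF family.

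The 9 arrays fall into 3 groups of 3. The t(1;14) group comes from 1 Landrace × Duroc boar that carries a reciprocal translocation between chromosomes 1 and 14 and has too few, poorly moving and malformed sperm. The oligospermic group comes from 1 boar with a normal karyotype and a low sperm count. Control arrays hold testis of boars with normal semen, and it was not given which of the 3 fertile control boars of the methods each array holds, or whether an array holds a pool of them. No age in months or years was given for any animal; the t(1;14) carrier is described as a young boar. Arrays of each infertile boar hold separate biopsies or extractions of the same animal, so a p-value measures the spread between arrays, which may be technical in the controls too if these were pooled, and any other difference between the animals goes with the group. The arrays lay on 3 slides, each with 1 array of every group, and between 37087 and 40632 probes per array were well above background. Of the 65 genes, 64 were well above background on all 9 arrays. None was saturated or carried an outlier flag.

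Introns are removed from pre-mRNA by the spliceosome, which is built from small nuclear ribonucleoproteins (snRNPs), a large set of PRPF and SF3 proteins, and helicases that remodel RNA at each step. SR proteins mostly favour the use of nearby exons, whereas hnRNPs and polypyrimidine tract binding proteins often oppose it. The testis is known for an unusually rich pattern of alternative splicing, and several helicases, among them DDX4 (VASA), are hallmarks of germ cells.

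Sequences of probes that fell in t(1;14) testis are given first, 5′ to 3′ as in the array files, since the largest changes were falls. For DDX4 and RBM47 it is the probe that stands for the gene, and for the others another probe of the same gene. All of them are 60 bases long on the array. The RBM47 probe is shown only by its first 30 bases.
DDX20: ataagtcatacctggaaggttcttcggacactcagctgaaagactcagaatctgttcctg
RBM4B: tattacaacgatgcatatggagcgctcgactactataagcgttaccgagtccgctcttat
RBM47: tttcactttagcaggaggcctgtgctcata
HNRNPAB: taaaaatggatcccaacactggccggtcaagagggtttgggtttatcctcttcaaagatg
DDX4: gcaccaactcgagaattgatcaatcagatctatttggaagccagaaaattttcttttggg
DDX3X: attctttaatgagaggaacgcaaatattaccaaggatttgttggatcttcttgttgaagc

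In t(1;14) testis compared with control, 17 of the 65 genes rose and 14 fell at an adjusted p of at most 0.01 (limma with Benjamini-Hochberg adjustment over all 41105 probes tested). Of all probes tested, 38.5% were called at this threshold, 20.0% higher and 18.5% lower, against 47.7% of these genes. With median centring in place of quantile normalization 14 rose and 17 fell, and with scaling by the 75th percentile 15 and 17. The falls were the larger changes. DDX20, RBM47 and RBM4B fell by between 1.95 and 2.61 on the log2 scale, whereas the largest rise, that of PRPF39, was 1.07. The median log2 fold change of the 65 genes was 0.02, beside 0.13 over all probes, and the median size without regard to sign was 0.49 beside 0.56. Past a log2 fold change of 2 in size as well, a second threshold taken over from the methods, were DDX20 and RBM47. They are 3.08% of these genes, and 5.82% of all probes were past both thresholds. At a size of 1 there were 6 genes (9.23%) beside 20.5% of all probes. Signals of the t(1;14) and control arrays did not overlap for 45 of the 65 genes (69.2%), and for 61.6% of all probes.

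**Figure D1:**
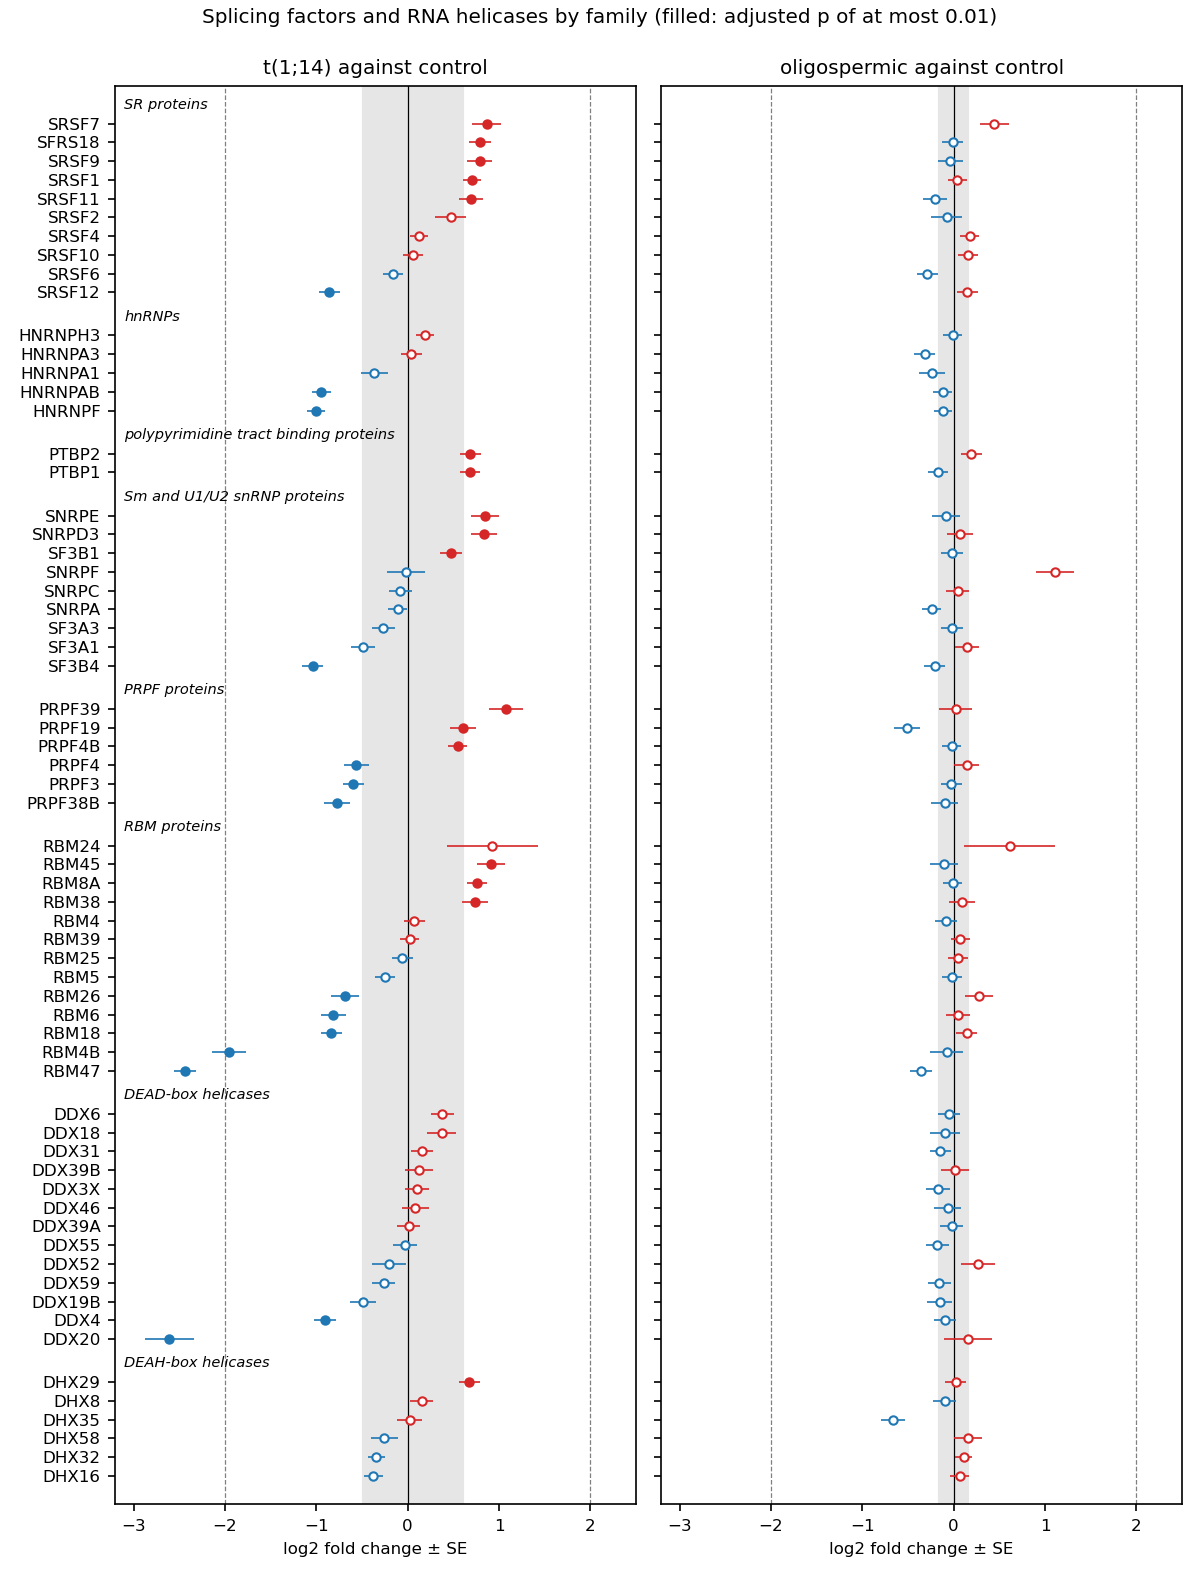
Log2 fold change with its standard error (x axis) of 64 of the 65 genes by family, t(1;14) against control on the left and oligospermic against control on the right, with 3 arrays per group. Points are red where higher and blue where lower, filled points have an adjusted p of at most 0.01, the grey band is the middle 50% of all probes tested, and the dashed lines stand at -2 and 2; 31 points are filled on the left and 0 on the right.

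The DEAD-box helicases held the largest change. DDX20 (gemin 3), a component of the SMN complex that assembles snRNPs, read 13.12, 14.18 and 14.10 (log2 signal) on the control arrays. On the t(1;14) arrays it read 11.29, 11.00 and 11.28, and on the oligospermic arrays 13.81, 13.93 and 14.12. All 3 t(1;14) arrays lay below every other array, although control array 1 was about 1 log2 unit under the other controls. The fall was 2.61 ± 0.27 (SE), or 6.10-fold, at an adjusted p of 9.1e-05. The other DDX20 probe, whose sequence is given above, fell by 2.16, so the gene's probes moved together.

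DDX4, the germ cell helicase needed for the chromatoid body and for silencing of transposons, read 10.99, 11.18 and 10.87 on the control arrays and 10.08, 10.18 and 10.06 on the t(1;14) arrays. The groups did not overlap and the gene fell by 0.91 ± 0.12 (adjusted p = 3.6e-04). Its other probe had a log2 fold change of -0.67 that missed the threshold (adjusted p = 0.48). The remaining 11 of 13 DEAD-box genes were not called on their chosen probes, beside 20.0% of all probes higher and 18.5% lower, with values from -0.49 for DDX19B, which takes part in mRNA export, to 0.38 for DDX6, a decapping factor. DDX18, among these 11, had 2 of its 7 probes called higher (0.83 and 1.12). DDX39A, the brightest DEAD-box probe of the array, had a log2 fold change of 0.01, and its paralogue DDX39B (UAP56), a spliceosomal and export helicase, one of 0.12.

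DDX3X, a helicase of translation initiation and the single tested gene here on the X chromosome, gave different answers with its probes. The probe chosen by the rule had a log2 fold change of 0.10 ± 0.13 (adjusted p = 0.53), while the other probe, given above and starting at base 1628 of its transcript, fell by 2.20 (adjusted p = 7.0e-05). DDX3Y, a near-identical copy on the Y chromosome, has no probe of its own name here, and whether either DDX3X probe also binds its transcript was not tested. DDX55 split in a similar way: the probe at base 1880 fell by 1.56 and the chosen probe at base 2418 had a value of -0.03.

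Among the 6 DEAH-box helicases, DHX29, which helps ribosomes scan structured leaders, rose by 0.67 ± 0.11 (adjusted p = 1.4e-03). DHX16 and DHX32 had values of -0.37 and -0.34 and missed the threshold with adjusted p of 0.014 and 0.015, while 2 of the 4 tested probes of DHX32 were called lower (-0.74 and -0.59). DHX8, which releases spliced mRNA, stood at 0.15 and was not called, nor was DHX58, an innate sensor of viral RNA that matched the rule by name only, at -0.25. DHX35 is described with the oligospermic boar.

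RBM proteins, a broad family that shares the RNA recognition motif, showed 3 rises and 5 falls among 13 genes, beside 20.0% of all probes higher and 18.5% lower. RBM47, a partner of APOBEC1 in C-to-U editing of mRNA, read 11.28, 11.08 and 11.20 on the control arrays and 8.88, 8.68 and 8.69 on the t(1;14) arrays. It fell by 2.44 ± 0.12, or 5.41-fold, with the smallest adjusted p of the 65 genes (4.8e-06), and the value rests on a single probe. RBM4B, a regulator of alternative splicing, read 13.74, 14.00 and 13.67 in control and 11.83, 11.95 and 11.77 in t(1;14). The groups stood apart, the fall was 1.95 ± 0.18 (adjusted p = 5.6e-05), and the gene's other 2 probes fell by 1.75 and 2.09. A probe of its close paralogue RBM4 had a log2 fold change of 0.08 (adjusted p = 0.62). Smaller falls were those of RBM18 (0.83), RBM6 (0.81) and RBM26 (0.69). RBM6 lies beside RBM5 in the genome and resembles it, and RBM5 itself stood at -0.25, short of the threshold.

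The 3 rises in the family were RBM45 (0.92 ± 0.15), RBM8A (0.76 ± 0.11) and RBM38 (0.73 ± 0.14), whose dimmest probe had a value of -0.18 and was not called. RBM8A is Y14, a core protein of the exon junction complex, and 3 of its 4 probes rose. RBM45 read 7.11, 7.17 and 6.70 on the control arrays and 7.99, 7.79 and 7.95 on the t(1;14) arrays, without overlap. RBM24, a muscle splicing regulator, was the dimmest gene, with signals between 2.46 and 4.68 over the 9 arrays. It was well above background on 1 control, 2 t(1;14) and 1 oligospermic array, passed the filter only through t(1;14), and was called in no comparison.

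**Figure D2:**
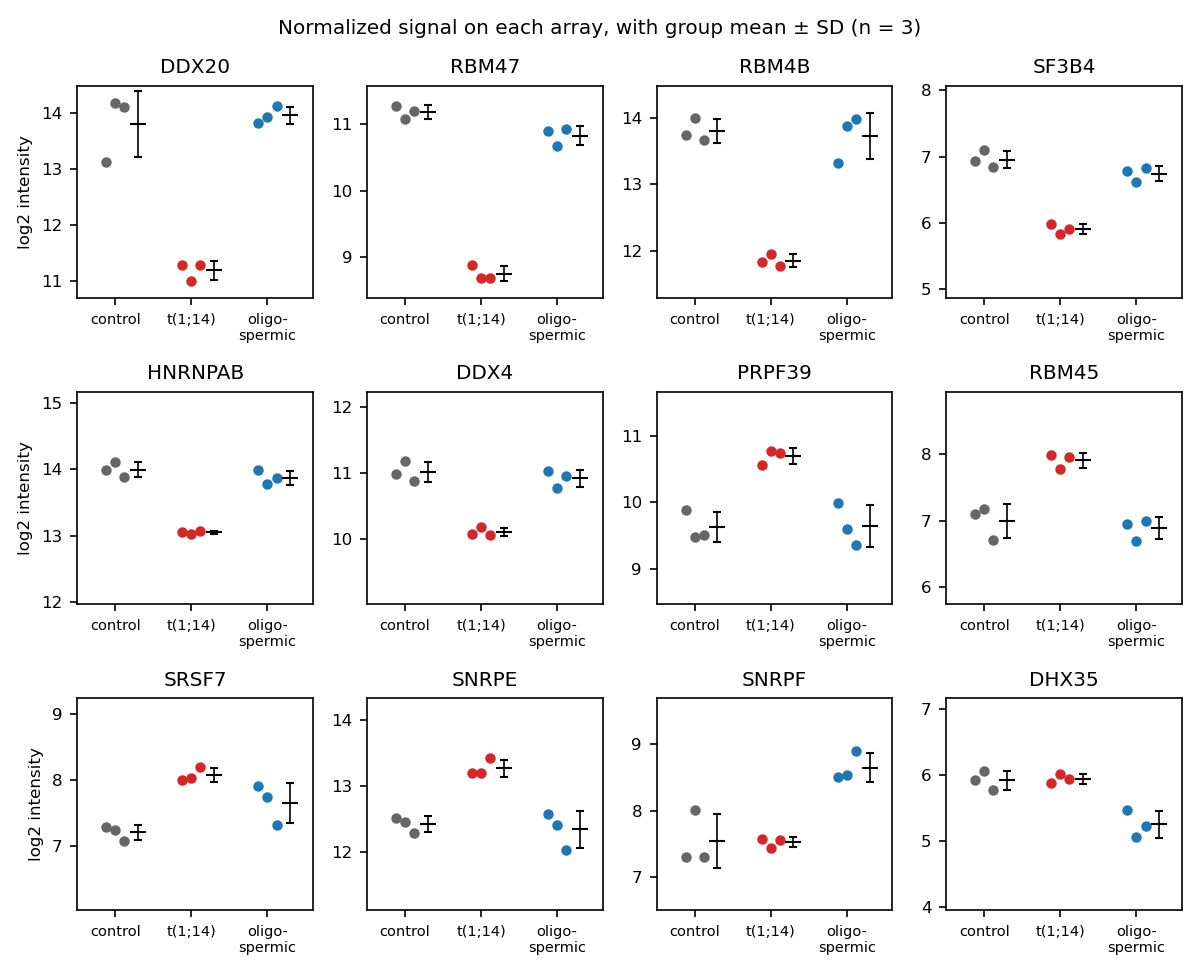
Normalized log2 signal (y axis) of 12 genes on each array, with control, t(1;14) and oligospermic arrays side by side and the group mean ± SD (n = 3) in black. The t(1;14) arrays lie below all control arrays for DDX20, RBM47, RBM4B, SF3B4, HNRNPAB and DDX4 and above them for PRPF39, RBM45, SRSF7 and SNRPE, while for SNRPF and DHX35 the oligospermic arrays stand apart.

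On their chosen probes, 5 of 10 SR proteins rose and 1 fell in t(1;14), beside 20.0% of all probes higher and 18.5% lower. The median log2 fold change of the 10 chosen probes was 0.58, and it depends on which probe stands for each gene. The rise of SRSF1 held for 2 of its 4 probes, and another fell. SRSF7, which also promotes mRNA export, read 7.29, 7.26 and 7.09 in control and 8.0, 8.03 and 8.19 in t(1;14), a rise of 0.86 ± 0.16 (adjusted p = 2.2e-03). SFRS18 (now PNISR) and SRSF9 each rose by 0.79, SRSF1 by 0.71 and SRSF11 by 0.70. The chosen probe of SRSF11 was the highest of 9, of which 2 were called and whose median was 0.31. The exception was SRSF12, a repressive member of the family, which read 11.81, 11.93 and 11.81 in control against 11.00, 11.03 and 10.93 in t(1;14) and fell by 0.86 ± 0.11 (adjusted p = 3.9e-04). SRSF2 (SC35), the brightest of the list, had a value of 0.47 and missed the threshold (adjusted p = 0.049), although its arrays did not overlap and 3 of its 7 probes rose.

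Polypyrimidine tract binding proteins both rose on their chosen probes, beside 20.0% of all probes. PTBP1, the widely expressed repressor of exons, rose by 0.68 ± 0.11 (adjusted p = 9.3e-04), and PTBP2, its paralogue of neurons and male germ cells, by 0.69 ± 0.12 (adjusted p = 1.5e-03). PTBP1 read 12.69, 12.43 and 12.71 in control and 13.28, 13.34 and 13.27 in t(1;14). The other 3 probes of PTBP1 were not called, and the lowest had a value of -0.10. The direction of PTBP2 turned on the probe, as described with the other genes whose probes disagreed.

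Of the 5 hnRNPs, which coat nascent transcripts, 2 fell and none rose on the chosen probes, beside 18.5% and 20.0% of all probes. HNRNPAB read 13.99, 14.11 and 13.89 in control and 13.05, 13.03 and 13.07 in t(1;14), and fell by 0.95 ± 0.10 (adjusted p = 1.4e-04). A further 2 of its 4 probes fell, by 1.1 and 1.24, and the fourth, on another transcript, stood at 0.37 and was not called. HNRNPF, a binder of G-rich RNA, read 14.95, 15.03 and 14.83 in control and 13.91, 14.01 and 13.89 in t(1;14), a fall of 1.00 ± 0.10 on the chosen probe (adjusted p = 7.6e-05). This call turned on the probe, since 6 of the gene's 9 probes rose. HNRNPA1, the best known exon repressor of the family, had a value of -0.36 that was not called (adjusted p = 0.061), and none of its 5 probes was.

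Components of the U1 and U2 snRNPs split, with 3 rises and 1 fall among 9 genes, beside 20.0% of all probes higher and 18.5% lower. The Sm proteins SNRPE and SNRPD3, which form part of the ring around spliceosomal RNAs, rose by 0.84 ± 0.15 and 0.83 ± 0.14. SNRPF, another Sm protein, had a value of -0.02 and was not called. SNRPE read 12.52, 12.45 and 12.29 in control and 13.19, 13.20 and 13.41 in t(1;14), and its 3 probes all rose, as did 7 of the 8 probes of SNRPD3. SF3B1, the U2 subunit that holds the branch point, rose by 0.48 ± 0.12 at an adjusted p of 9.9e-03, and 5 of its 15 probes were called. This call was lost with median centring (0.27, adjusted p = 0.072), with slide as a block (adjusted p = 0.011) and when any of 5 of the 6 arrays was left out. SF3B4, of the same complex, fell by 1.04 ± 0.11 (adjusted p = 1.3e-04), from 6.93, 7.09 and 6.84 to 5.99, 5.84 and 5.91. SNRPC, the brightest of the list, and SNRPA, both of U1, stood at -0.08 and -0.11. SF3A1 and SF3A3 had values of -0.49 and -0.27 and were not called.

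PRPF proteins were divided evenly, with 3 rises and 3 falls among 7 genes tested, beside 20.0% and 18.5% of all probes. PRPF39, a U1 snRNP factor, read 9.89, 9.48 and 9.50 in control and 10.57, 10.78 and 10.75 in t(1;14), and rose by 1.07 ± 0.18 (adjusted p = 1.5e-03). PRPF19, a ubiquitin ligase of the spliceosome, rose by 0.60 and the kinase PRPF4B by 0.55. Each of these rises held for 1 of the gene's 2 probes, and the other PRPF19 probe had a value of -0.17. PRPF3 and PRPF4, partners within the U4/U6 snRNP, fell by 0.59 and 0.56, and PRPF38B fell by 0.77. The fall of PRPF3 held for 1 of its 3 tested probes, and PRPF4 has 1 probe. Of the 6 probes of PRPF38B, 2 were called lower and 1 higher. These calls were lost under 4 (PRPF3), 8 (PRPF4) and 2 (PRPF38B) of the alternative settings.

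Genes of the splicing machinery that the name rule did not take were counted too. A list of 82 such genes had 30 on the array, of which 7 rose and 5 fell in t(1;14), with a median log2 fold change of 0.11. Over all probes 20.0% rose and 18.5% fell, so the count of the list was near the background. The SR protein kinase SRPK1 fell by 1.45, ZRSR2 of the minor spliceosome by 1.32 and the kinase CLK3 by 1.02, while CELF1, the cap binding subunit NCBP2 and the U4/U6 cyclophilin PPIH rose by 0.85, 0.71 and 0.62. The SR-like regulators TRA2A and TRA2B rose by 0.58 and 0.53.

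Markers of testicular cell types moved between the same groups. Of 8 spermatid markers tested 7 were lower in t(1;14), among them TSSK2 (-2.55) and ACRV1 (-2.40), and their summed linear signal was 115728 to 123857 on the t(1;14) arrays beside 272032 to 299347 on the control arrays and 291760 to 299628 on the oligospermic arrays. Of 8 Leydig markers, 6 were higher, and their sum was 123624 to 132270 beside 61625 to 64834 and 48945 to 64964. The sums add probes of different genes, and some of these were saturated: PRM2 on all 3 control, 1 t(1;14) and all 3 oligospermic arrays, TNP2 on 1 control and 3 oligospermic arrays, and the Leydig marker INSL3 on 2 t(1;14) arrays and 1 oligospermic array. Of 3 spermatogonial markers 2 were higher, with sums of 6318 to 6920, 3198 to 4574 and 2898 to 3920 in the same order of groups. Of 6 spermatocyte markers 2 were higher and 2 lower, of 10 Sertoli markers 1 and 2, of 7 peritubular and vascular markers 2 and 1, and of 3 immune markers 1 and 0. All these calls are for t(1;14) against control. In oligospermic against control the only marker called was SPO11, of spermatocytes, at -2.14 (limma, adjusted p = 3.3e-03), beside -1.03 in t(1;14). Every marker was well above background on at least 7 of the 9 arrays. In whole testis, fewer cells of a type and less RNA per cell cannot be told apart, and the part of cell makeup in the changes above was not tested.

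Some genes had probes that changed in opposite directions, in HNRNPF, SRSF1 and PRPF38B along the same transcript and in PTBP2 on separate transcript models. Of the 43 genes with at least 2 tested probes, 4 had probes called higher and probes called lower in t(1;14) against control. This is 9.30% of those genes, and the same was seen in 141 of 3736 gene names over the array (3.77%). The 2 shares were not matched for the number of probes per gene, and these 4 genes had 9, 6, 5 and 4 tested probes. Among the 43 genes, another 19 had called probes that only rose, 11 had called probes that only fell and 9 had none. Against oligospermic, HNRNPF, SRSF1, PRPF38B, HNRNPAB, RBM18 and SRSF2 had probes called in both directions, and PTBP2 did not. Over all 207 tested member probes, 64 rose and 30 fell, which is 45.4% called beside 38.5% of all probes (20.0% higher and 18.5% lower). The probe of PRPF8, the core of the spliceosome's active site, was among them and had a value of 0.42 that was not called (adjusted p = 0.042).

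HNRNPF carried the clearest example, and stretches of 30 bases from 5 of its 9 probes are shown to place the change of sign. Capitals mark a pair of adjacent ATG triplets in the first, AATAAA in the second and ATTAAA in the third. The last 2 come from the side that rose.
HNRNPF base 216: tccATGATGttgggccctgagggaggtgaa
HNRNPF base 1539: agccaacaagcAATAAAagcagttattact
HNRNPF base 1569: ccatgagtttgtgaaatctggATTAAAaaa
HNRNPF base 1768: tcaagtatgttaaatgtggatcttttacac
HNRNPF base 1998: ccttgacttaaaactttctttgtactgtga

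Each base number is where the 60-base probe starts in the target transcript named in the array files, and the stretches at 216 and 1569 are the last 30 bases of their probes. AATAAA and ATTAAA are the common forms of the polyadenylation signal. Searched on the strand printed, AATAAA was found in 20 of the 214 member probes (9.35%) and in 11.4% of all probes, and ATTAAA in 8 (3.74%) and 4.40%. A match is no evidence that the signal is used.

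The 3 HNRNPF probes that start at bases 216, 1539 and 1569 fell by 1.33, 1.08 and 1.00 in t(1;14), and the 6 that start between 1768 and 1998 rose by 0.69 to 0.89. The sign turned between the probes at 1569 and 1768. The log2 signal of the probe at 1817 minus that of the probe at 216 was 1.11, 0.50 and 0.87 on the control arrays and 1.13, 1.20 and 1.03 on the oligospermic arrays. On the t(1;14) arrays the same difference was 3.09, 3.06 and 2.99, above every other array. In the oligospermic boar the 9 log2 fold changes against control lay between -0.25 and 0.08.

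SRSF1, the founding SR protein, showed a wider contrast between probes. Its probe at base 828, of which the first 30 bases are printed here with those of the probe at 2577, fell by 1.86 ± 0.12 (adjusted p = 1.1e-05).
SRSF1 base 828: cgtacataagatgattggtgacactttttt
SRSF1 base 2577: agcaatctccttggaaggattcagcacgag

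Further along the same transcript, SRSF1 had a value of 0.18 at base 1453 and rose by 0.53 at base 2330 and by 0.71 at base 2577, the chosen probe. The signal at 2577 minus that at 828 was 0.66, 0.36 and 0.50 on the control arrays, 2.85, 3.18 and 3.19 on the t(1;14) arrays and 0.25, 0.38 and -0.11 on the oligospermic arrays. Against control, the probe at 828 read 0.38 higher in the oligospermic boar and was not called there.

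PTBP2 fell by 1.19 on the probe at base 1212 of one transcript model, and rose by 0.69 and 0.71 on the probes at 2259 and 2376 of another. The probe at base 814 of the second model had a value of -0.36 and was not called. PRPF38B fell by 0.77 and 0.71 at bases 923 and 1010 and rose by 0.76 at base 2800, while the last of its probes, at 3682, stood at -0.02. The PRPF38B probe at 923 reads as follows.
PRPF38B base 923: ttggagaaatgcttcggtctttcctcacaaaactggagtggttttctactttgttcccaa

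Genes with calls on one side only could also climb along the transcript. SFRS18 stood at 0.05 at base 198, 0.65 at base 1634 and 1.13 at base 2955. RBM18 was called lower at base 914 (-0.83) and had values of 0.12 and 0.36 at 2414 and 2645. RBM25 stood at -0.06 at base 3017 and rose by 0.96 at base 5493. In RBM4B, by contrast, the fall was much the same at 293 (1.75), 627 (2.09) and 803 (1.95). DDX18 and DHX35 had higher values at their first probe (0.83 and 0.82) than at their last (0.37 and 0.02).

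**Figure D3:**
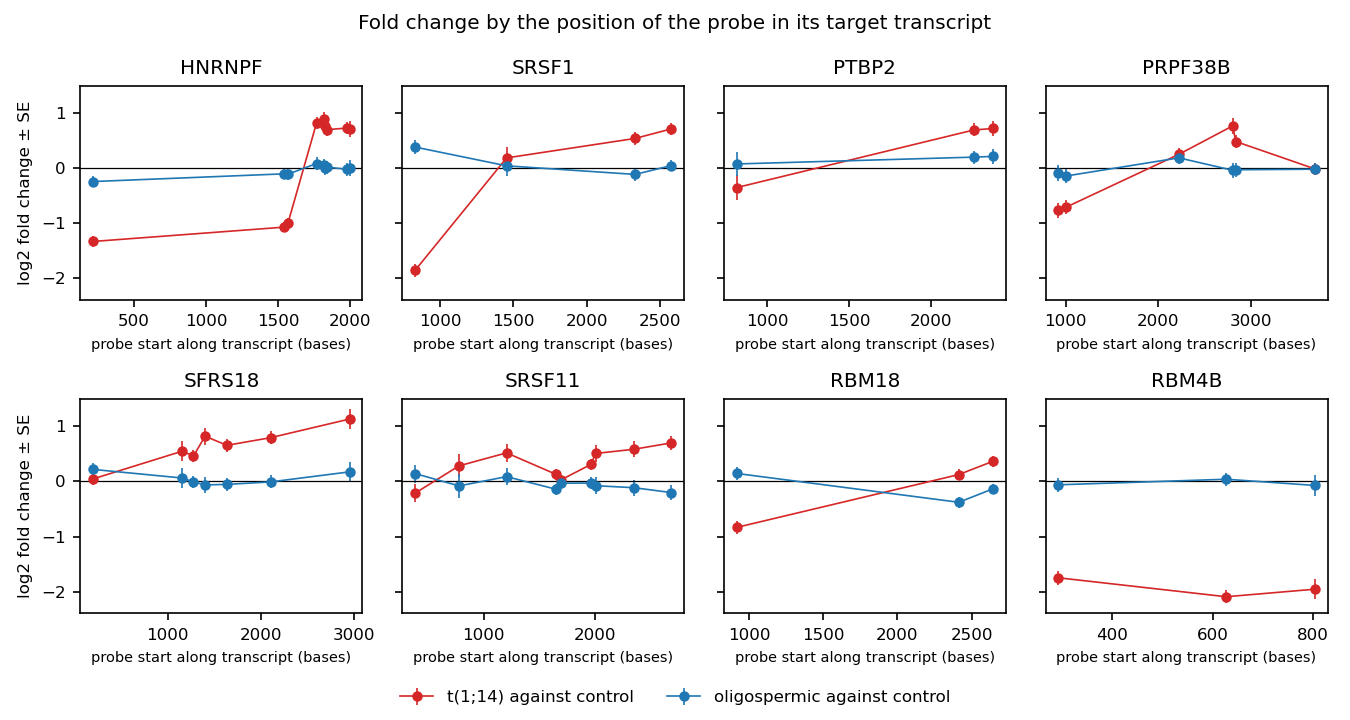
Log2 fold change with its standard error (y axis) against the start of each probe along its transcript in bases (x axis), for 8 genes, with t(1;14) against control in red and oligospermic against control in blue. Red points climb from left to right in HNRNPF, SRSF1, the one PTBP2 transcript model drawn, SFRS18 and RBM18, reach 0.76 at base 2800 of PRPF38B before the last probe at -0.02, and stay between -2.09 and -1.75 in RBM4B.

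This climb was found over the whole array. For every transcript with tested probes at least 200 bases apart, the value of the last probe was set against that of the first, a comparison chosen after the values had been seen. In t(1;14) against control, the last probe was higher in 31 of the 42 transcripts of these genes (73.8%) and in 72.7% of all 2571 transcripts, with a median difference of 0.16 on the log2 scale beside 0.25. In oligospermic against control it was higher in 57.1% and 56.9%, and in t(1;14) against oligospermic in 73.8% and 68.1%. By transcript, the share for t(1;14) against control among these genes was thus near that of the array. Over all pairs of probes at least 200 bases apart on a transcript, the downstream probe was higher in 177 of 223 pairs of these genes (79.4%) and in 70.3% of all pairs. Against oligospermic it was 76.2% beside 66.1%, and in oligospermic against control 52.9% beside 60.1%. Pairs of a transcript share probes, so genes with many probes weigh more in these shares, and no test was made. HNRNPF (2.04) and SRSF1 (2.57) had the largest differences of the 42 transcripts and PTBP2, at bases 238 and 1212 of one model, the lowest (-1.45). RNA quality scores of the single samples were not given in the sources used here, and their part in this pattern was not tested.

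**Figure D4:**
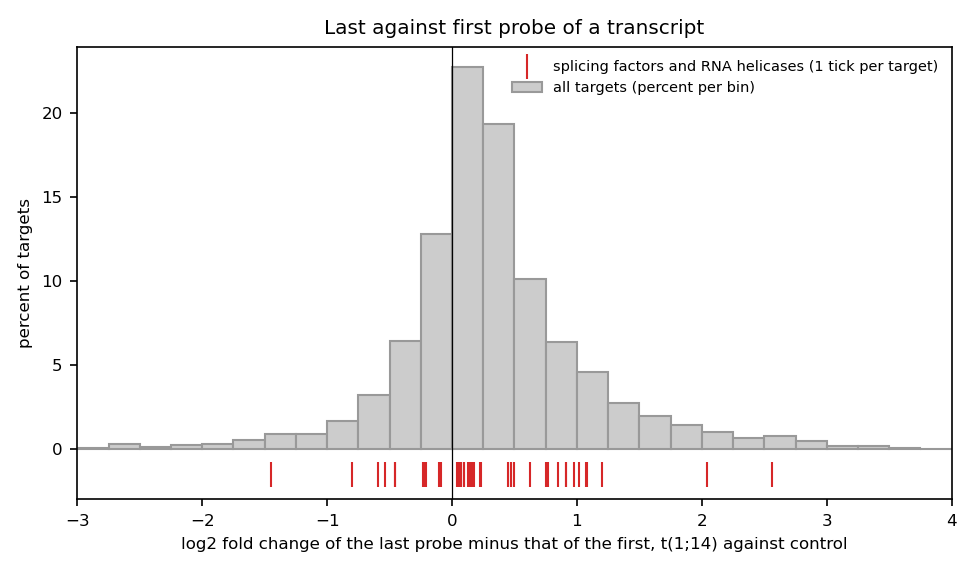
Distribution of the difference between the log2 fold changes of the last and the first probe of a transcript (x axis, t(1;14) against control), as percent of 2571 transcripts per bin of 0.25 (grey bars) and as red ticks for the 42 transcripts of splicing factors and RNA helicases. Values beyond the axis are not drawn, and 73.8% of the ticks and 72.7% of all transcripts lie above 0.

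The probe that stood for a gene therefore decided part of the count. With the dimmest listed probe of each gene in place of the brightest, 7 genes rose and 13 fell, and in 6 of those 20 calls the probe was the same in both cases. PTBP2 then turned from a rise of 0.69 to a fall of 1.19 (adjusted p = 5.8e-03). The median over all probes of HNRNPF was 0.71, against the fall of 1.00 on its chosen probe. Calls that every tested probe of the gene shared were those of DDX20 (2 probes), RBM4B (3 probes), SNRPE (3 probes), RBM45 (2 probes) and DHX29 (2 probes), beside the genes with a single probe.

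In oligospermic testis compared with control, no gene of the 65 was called at the adjusted p (limma), and 0.224% of all probes were. With a log2 fold change of at least 1 in size as well, it was 0.221% of all probes. At an unadjusted p under 0.05 there were 8 genes (12.3%), beside 13.0% of all probes, and the groups did not overlap for 10 genes (15.4%), beside 15.5%. The median log2 fold change was -0.02, and the middle 50% of the genes lay between -0.12 and 0.07. The largest value was that of SNRPF, an Sm protein, which read 7.30, 8.01 and 7.30 in control, 8.50, 8.53 and 8.90 in the oligospermic boar and 7.57, 7.44 and 7.55 in t(1;14). Its log2 fold change of 1.11 ± 0.21 had an adjusted p of 0.052. Without control array 2, which was the highest control, the value was 1.34 and passed the threshold (adjusted p = 5.5e-03).

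RBM24 had a value of 0.62 between signals that were well above background on 1 of 3 arrays in each group. Next was SRSF7 at 0.45 on the upper side, and on the lower side DHX35 at -0.67 (adjusted p = 0.065), PRPF19 at -0.51 and RBM47 at -0.35. DHX35, a helicase found with the catalytic spliceosome, read 5.92, 6.06 and 5.77 in control and 5.47, 5.06 and 5.23 in the oligospermic boar, without overlap. DDX4 and DDX20 had values of -0.09 and 0.16, and SRSF12 of 0.15. None of the 30 other splicing genes was called in this comparison.

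In t(1;14) compared with oligospermic testis, 17 of the 65 genes rose and 18 fell, which is 53.8% beside 42.7% of all probes (22.8% higher and 19.9% lower). At a log2 fold change of 1 in size there were 8 genes (12.3%) beside 23.4%, and the arrays did not overlap for 51 genes (78.5%) beside 70.4%. With median centring in place of quantile normalization 12 rose and 20 fell, and with scaling by the 75th percentile 12 and 19. DDX20 (-2.76) and RBM47 (-2.08) were past both thresholds here as well (3.08% beside 6.53%). This comparison uses the same t(1;14) arrays as the first. RBM4B fell by 1.88, SRSF12 by 1.01, RBM18 by 0.98 and RBM26 by 0.97. The fall of RBM18 was that of its chosen probe, and 2 of its 3 tested probes were called higher (0.50 each). PRPF19 rose by 1.11 ± 0.14 (adjusted p = 3.0e-04), from 7.31, 7.04 and 6.92 on the oligospermic arrays to 8.22, 8.23 and 8.16, PRPF39 by 1.05 and RBM45 by 1.03. SNRPF fell by 1.12 (adjusted p = 2.0e-03) and DHX35 rose by 0.69 (adjusted p = 2.7e-03), both genes in which t(1;14) had values of -0.02 and 0.02 against control. SRSF7, which rose against control, had a value of 0.42 here and was not called (adjusted p = 0.051).

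Position on the rearranged chromosomes was taken from gene names in the RefSeq table. Of 7 genes on chromosome 1, PRPF39, SFRS18 and SNRPE rose and PRPF4, RBM18 and SRSF12 fell in t(1;14) against control, with DDX31 not called. On chromosome 14, SNRPD3 and SRSF9 rose and HNRNPF fell among 7 genes. Over all probes 38.5% were called, and with 7 genes a chromosome these counts are given as a description. Within slides, each of the 31 called genes differed in the same direction on all 3 slides, as did every called probe of the array. DDX20 differed between t(1;14) and control by -2.12, -2.90 and -2.81 on slides 1 to 3, RBM47 by -2.60, -2.39 and -2.32, and PRPF39 by 0.89, 1.27 and 1.07.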

How the data were processed

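The authors labelled RNA of 9 testis samples with cyanine 3, hybridized it to a custom 60K porcine Agilent array and read the spots with Feature Extraction 11.5.1.1. The deposited spot values are intensity units, background-subtracted and detrended by that software and not normalized between arrays. The deposited log2 values, for 38759 probes, are quantile normalized, and limma is named in the submitters' processing notes. They were used to choose the probe of each gene and as an alternative.

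For the values here, log2 intensities were quantile normalized over all 9 arrays. A probe was tested where some group had 2 or 3 arrays on which it was not flagged as an outlier and was well above background. Linear models with 1 mean per group and empirical Bayes variances were fitted in R 4.3.3 with limma 3.58.1 and data.table version 1.17.8, and summarised in Python 3.11.15 (pandas 2.3.3, numpy 2.4.6). Adjustment was by Benjamini-Hochberg over 41105 probes. The number of arrays, not a read depth, limits the precision. The median SD within a group was 0.242 (control), 0.134 (t(1;14)) and 0.177 (oligospermic). The fit was tested on simulated arrays: for t(1;14) against control it recovered 0% of 200 probes given a shift of 0.5 (log2), 14% of 200 given a shift of 1 and 91.5% of 200 given a shift of 3, and for oligospermic against control 0%, 17% and 90.5%, each among 41105 probes of which no others were shifted. With many probes changed, as in t(1;14), the adjusted threshold is less strict than in that simulation.

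The genes, lists and tests were chosen with earlier results of these data known. Genes named are those fixed by role, those past both thresholds, the 8 largest rises and falls per comparison without overlap (3 where none passed), the brightest gene of each family and genes whose probes disagree, and others were named after their values were seen. For 1 gene, which enters the counts, no value is reported here. The lists of other splicing genes and of markers of 7 cell types were used for counts, medians, summed signals and examples. Names and chromosomes came from a RefSeq table of Sscrofa11.1, which matched 66 of 67 genes. Probe starts are those in the array files. Starts of 0 were left out, and all 1396 neighbouring probes up to 30 bases apart shared at least 12 bases at the offset their starts give, within 5 bases.

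Replicate numbers did not pair t(1;14) with control (correlations of deviations -0.285, -0.194 and 0.139) or with oligospermic (-0.421, -0.335 and 0.121). For oligospermic and control they coincide with the slides, and the correlations were 0.478, 0.136 and 0.101, so only the first was sizeable. Arrays of a slide correlated at 0.339, 0.109 and 0.119 between t(1;14) and control and at 0.489, 0.292 and 0.330 between t(1;14) and oligospermic. Alternatives were the 6 arrays of each comparison alone, other scalings, normexp with an offset of 50, the authors' values, other filters, slide or replicate as a block, an intensity trend, other probes per gene, other thresholds and leaving out each array.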

Additional observations from a re-analysis of the deposited data

How the results depend on the processing

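The count of genes called in t(1;14) against control (31) was 94 over every member probe, 20 with the dimmest probe of each gene and 6 past a log2 fold change of 1 in size, and leaving out 1 array gave 21 to 30. The 2 genes past both thresholds became 5 probes over every member probe and 4 with the dimmest probes, and 2 to 3 without 1 array. Against oligospermic, the 35 genes became 105 probes and 8 at the fold of 1, with 24 to 31 without 1 array. The 2 past both thresholds there became 1 with normexp (RBM47 at -1.98), 6 over every member probe and 4 with the dimmest, and 2 to 3 without 1 array. For oligospermic against control, leaving out 1 array gave 0 to 1, the 1 being SNRPF without control array 2. The cause of these shifts was not tested, except that the probe and threshold settings change what is counted. Signs reversed in 20 values with a call under at least 1 of the settings. With the dimmest probe, against control, these were DDX3X (-2.20), PTBP2 (-1.19), RBM38 (-0.18), PRPF19 (-0.17), PTBP1 (-0.10), RBM18 (0.12), PRPF38B (0.76) and RBM25 (0.96). Against oligospermic they were DDX3X (-2.33), PTBP2 (-0.97), SRSF2 (-0.49), RBM38 (-0.24), RBM18 (0.50) and PRPF38B (0.81). With the median of a gene's probes they were HNRNPF (0.71 in both comparisons), RBM18 (0.12 and 0.50) and PRPF38B (0.11 and 0.036).

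With the replicate block 27 genes were called in t(1;14) against control, 28 against oligospermic and 0 in oligospermic against control, where the numbers coincide with the slides. With slide as a block the counts were 32, 36 and 0, and the counts past both thresholds stayed at 2, 2 and 0 under either block. Of the 32 genes called with slide as a block, 16 rose and 16 fell, and 30 were also called without it. Of 3379 values of 64 genes in the 3 comparisons under the alternatives, 3030 kept their direction and side of the threshold, 141 lost the call, 23 gained it and 165 changed sign without a call under either setting. Against control the call was lost most often for SF3B1 (12 alternatives), PRPF19 and PRPF4 (8 each), PRPF4B (7) and RBM26 (6). Against oligospermic it was lost most often for PTBP2 and SF3B1 (9 each) and DHX16 and RBM38 (7 each), and for DHX35 under 4. The call of SNRPE was lost without t(1;14) array 3 (adjusted p = 0.011), as was that of SRSF7 (adjusted p = 0.011), and that of SNRPD3 with median centring (adjusted p = 0.010). With 3 arrays a group, a gene not called is not shown to be unchanged.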
